A study of Mus musculus with 6 samples.

Results

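The genes described here are the transcription factor NRF2 (gene Nfe2l2), its inhibitor Keap1 and 8 of the antioxidant genes that NRF2 is known to switch on, which are Gclc, Gclm, Txnrd1, Srxn1, Nqo1, Hmox1, Gsta4 and Taldo1. They were taken by symbol from a fixed list of 10, and each of the 10 had 1 probe set on the array, among 19938 genes with a single symbol. All 10 passed the filter on dim genes, which kept 9969 genes with a mean log2 expression of at least 5.87 over the arrays. Expression was measured on 6 Affymetrix whole-transcript arrays, 1 for each of 6 cultures of 3T3-L1, a mouse fibroblast line that can be induced to become adipocytes. The cultures were undifferentiated fibroblasts in 10% calf serum and cells differentiated in 10% fetal bovine serum, which had 3 days of IBMX (115 µg/ml), insulin (1 µg/ml) and dexamethasone (1 µmol/l) followed by 3 days of insulin alone. In each state 1 culture had no compound, 1 had 0.5 mM adenine for 3 days and 1 had 0.5 mM AICAR for 3 days, and in the differentiated cultures those 3 days were the induction, so the cells were then without compound for the 3 insulin days. All cultures came from 1 cell line, and differentiation went together with the inducing drugs, the insulin and the serum, so these cannot be told apart.

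NRF2 is held in the cytoplasm by KEAP1, which hands it to a ubiquitin ligase for breakdown. Oxidants and electrophiles modify cysteines of KEAP1, NRF2 then accumulates without any need for more of its mRNA, and with a small MAF protein it binds antioxidant response elements (AREs) in its target genes. The targets make glutathione, regenerate thioredoxin, supply NADPH, and clear quinones, heme and reactive lipid products. In fat cells NADPH also feeds fatty acid synthesis, so genes that supply it serve both oxidant defence and lipid storage.

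Short promoter stretches are shown first because ARE and AP-1 motifs are the letters searched for near the starts of these genes. RefSeq (GRCm38.p6, the assembly also called mm10) gave a window from 250 bases before to 50 after a listed start for 7 of the 10 genes, in 9 windows, and Gclc, Hmox1 and Gsta4 had none in the table. The ARE core, spelled TGACNNNGC and searched on both strands, was present in the windows of 4 of these 7 genes (Nfe2l2, Gclm, Txnrd1 and Srxn1), against 14.0% of the 27025 genes with a window. The longer form, which is the core followed directly by A, was present for 1 of the 7 (Txnrd1), against 3.45% of all genes. The AP-1 motif TGAGTCA, which can overlap a core whose middle letters complete it, was present for 1 of the 7 (Srxn1), against 5.95%. Capitals mark the match in each stretch, which is written 5′ to 3′ on the strand of the gene and ends before the listed start.
Gclm, chr3:122245393-122245461, plus strand, core on the opposite strand: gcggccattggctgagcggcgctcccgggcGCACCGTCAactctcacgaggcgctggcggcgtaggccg
Txnrd1, chr10:82859083-82859152, plus strand, longer form on the opposite strand: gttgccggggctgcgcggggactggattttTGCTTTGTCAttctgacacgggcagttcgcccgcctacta
Srxn1, chr2:152105449-152105515, plus strand, AP-1 motif: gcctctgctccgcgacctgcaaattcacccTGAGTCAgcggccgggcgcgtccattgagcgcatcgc
Nfe2l2, chr2:75704865-75704913, minus strand, core: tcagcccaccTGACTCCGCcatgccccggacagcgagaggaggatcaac
The matches begin 134 bases before the listed start in Gclm, 93 bases before the second of 3 listed starts in Txnrd1, 45 in Srxn1 and 240 in Nfe2l2. In Gclm that listed start lies downstream of the first base of the gene (122245487), to which the match is closer. In Srxn1 a second AP-1 match begins 102 bases before the start, and its core match lies after the start and is not shown. A match describes letters only, and a window without one says nothing about elements farther away.

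The summed marker signals followed the labelled states, though not every single marker did. The 9 adipocyte markers had a summed signal of 13.70 to 14.76 (log2 of the sum) in the 3 adipocyte cultures and of 11.89 to 12.26 in the 3 fibroblast cultures, with adiponectin (Adipoq) at 10.64 against 4.42 in the untreated pair, while leptin (Lep) stayed below the filter in every culture. The 8 fibroblast markers summed to 11.70 to 13.40 in adipocytes and 13.63 to 14.35 in fibroblasts. In AICAR fibroblasts Col3a1, Thy1, Dlk1 and S100a4 were lower than in control and AICAR adipocytes, with Dlk1 at 9.05 against 10.32 and 10.11. Col1a1 was lower there than in control adipocytes only, and Acta2, Pdgfrb and Postn were higher there than in every adipocyte culture. Of the leukocyte, endothelial, epithelial and muscle markers only Cd68 and Des passed the filter. Array medians over all probe sets lay between 5.41 and 5.49. A difference between 2 arrays sets 1 culture against 1 and has no replicates behind it, so it carries no error. Such differences are given by size, with 1 on the log2 scale being 2-fold, beside the share of all 9969 genes that reached that size. In cultures measured in bulk, fewer cells with a transcript and less of it per cell cannot be told apart.

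**Figure D1:**
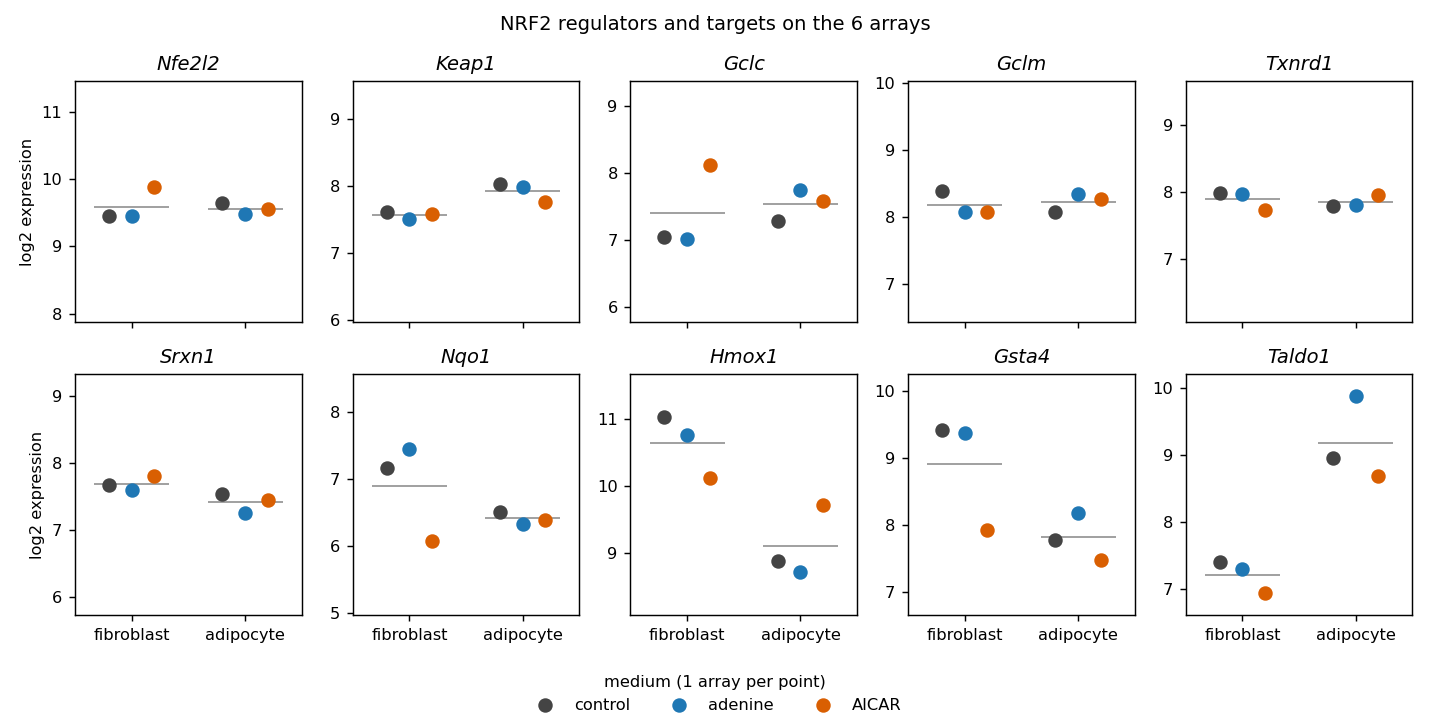
Log2 expression of the 10 genes on the 6 arrays, 1 point per array, with the medium in colour and a grey line at the mean of the 3 arrays of a state; every panel spans the same height on the log2 axis. Taldo1 was higher in all 3 adipocyte cultures (8.68 to 9.87) than in the fibroblasts (6.93 to 7.40), Hmox1 was lower (8.71 to 9.72 against 10.12 to 11.03), and Txnrd1 stayed between 7.73 and 7.97.

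Of the 10 genes, 5 ranged over at least 2-fold and 5 over less than 1.5-fold. Taldo1 spanned 2.94 on the log2 scale from its lowest to its highest array, Hmox1 2.32, Gsta4 1.94, Nqo1 1.37 and Gclc 1.11. The other 5 spanned less than 1.5-fold, namely Srxn1 with 0.56, Keap1 0.53, Nfe2l2 0.43, Gclm 0.32 and Txnrd1 0.25, where the median over all tested genes was 0.66. Only 2.1% of tested genes had a range as wide as that of Taldo1, and 22.7% had one as wide as that of Gclc. A range at least as wide as that of Srxn1 was found for 59.5% of tested genes, of Keap1 for 63.0% and of Txnrd1 for 93.7%. Small ranges like those of Srxn1 and Keap1 were thus common among all tested genes. The thioredoxin reductase, the sulfiredoxin, the modifier subunit of glutathione synthesis and both regulators were the 5 with the narrower ranges.

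The regulators differed little between cultures. Nfe2l2 (chromosome 2, 75675513 to 75704663), which encodes NRF2, was at 9.45 in control, 9.45 in adenine and 9.89 in AICAR fibroblasts, and at 9.65, 9.48 and 9.56 in the corresponding adipocytes. Its highest value was that of the AICAR fibroblasts, 0.43 above their control, and the states overlapped. Keap1 (chromosome 9, 21229730 to 21239332), which encodes the protein that targets NRF2 for breakdown, was at 7.61, 7.50 and 7.58 in fibroblasts and at 8.03, 7.98 and 7.75 in adipocytes. All 3 adipocyte values of Keap1 lay above all 3 fibroblast values, a separation seen for 42.0% of tested genes in one direction or the other. The Keap1 difference between states of 0.35 (SE 0.15) did not pass the test described next (limma adjusted p = 0.178).

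The question of how the differentiated cells differ from the fibroblasts could be tested across the 3 media. An additive model was fitted with limma to the 6 arrays, with a term for state and terms for medium, meaning no compound, adenine or AICAR. Each adipocyte array was thus set against the fibroblast array of the same medium in this sense (n = 3 pairs). The arrays of a pair also differed in serum, inducing drugs and insulin, and those with a compound in the time since exposure. The error is the departure from additivity, not the spread between cultures. Taldo1 rose in adipocytes by 1.96 (SE 0.23, limma adjusted p = 0.0121) and Gsta4 fell by 1.09 (SE 0.25, limma adjusted p = 0.0495). These 2 of the 10 genes passed, 1 in each direction, where 10.6% of all tested genes passed (5.22% rose and 5.37% fell). At an unadjusted limma p under 0.05 there were 3 of the 10, where 29.5% of all tested genes had one. Hmox1 had the second largest coefficient, -1.53 (SE 0.36), and missed the threshold (limma adjusted p = 0.0558). The call of Gsta4 stood at the threshold, with an adjusted p from 0.0195 to 0.21 over the alternatives and a pass in 5 of 11 fits. Without the control pair of arrays 0 of 9969 genes passed, so none of the 10 could be called, and an unadjusted p under 0.05 was found for 2 of the 10 and for 21% of all genes. Taldo1 then had an adjusted p of 0.0954 in limma, its only fit of 11 above 0.05.

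**Figure D2:**
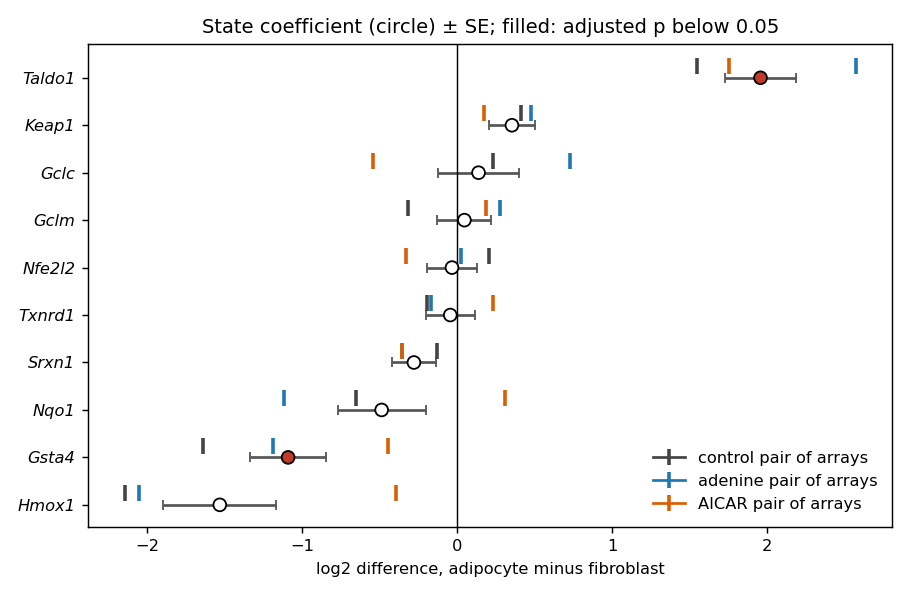
Adipocyte minus fibroblast difference on the log2 scale for the 10 genes; circles are coefficients of the additive model with bars of 1 SE, filled where the limma adjusted p was below 0.05, and ticks are the differences within each pair of arrays in the same medium. Taldo1 (1.96) and Gsta4 (-1.09) passed, and for Hmox1, Gsta4 and Nqo1 the tick of the AICAR pair lies farthest to the right.

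Taldo1 (chromosome 7, 141392160 to 141402976) encodes transaldolase, an enzyme of the non-oxidative pentose phosphate pathway, whose oxidative branch makes NADPH. Its log2 expression was 7.40 in control, 7.30 in adenine and 6.93 in AICAR fibroblasts, and 8.94, 9.87 and 8.68 in control, adenine and AICAR adipocytes. The states did not overlap, and the adenine adipocytes stood highest. The difference between states was 1.55 (2.93-fold) without compound, 2.58 (5.96-fold) with adenine and 1.75 (3.37-fold) with AICAR. The adipocyte marker sum followed a like order over the adipocyte cultures, at 13.80 in control, 14.76 in adenine and 13.70 in AICAR, while the fibroblast marker sum was lowest in the adenine adipocytes, at 11.70. The part of either in the Taldo1 values was not tested.

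Across the 6 arrays, the 3 tested genes with profiles closest to that of Taldo1, by root mean squared difference between mean-centred log2 values, were Bcat2 (0.089), Gnpat (0.123) and Fam214a (0.146). Bcat2 encodes the mitochondrial branched-chain aminotransferase, and Gnpat a peroxisomal acyltransferase of ether lipid synthesis. Bcat2 was at 7.76, 7.72 and 7.17 in control, adenine and AICAR fibroblasts and at 9.29, 10.26 and 9.22 in the adipocytes. These genes, chosen for their likeness to Taldo1, were also lowest in AICAR fibroblasts and highest in adenine adipocytes. Among the 10 genes the closest to Taldo1 was Keap1 at 0.878 and the farthest was Hmox1 at 1.86. The closest pair among the 10 was Gclm and Txnrd1 at 0.134.

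Hmox1 (chromosome 8, 75093618 to 75100593) encodes heme oxygenase, which breaks heme into biliverdin, iron and carbon monoxide. It was at 11.03 in control, 10.77 in adenine and 10.12 in AICAR fibroblasts, and at 8.89, 8.71 and 9.72 in the adipocytes. Every adipocyte value was lower than every fibroblast value, and the AICAR cultures of the 2 states came closest to each other. The difference between states was -2.15 without compound (4.43-fold lower in adipocytes), -2.05 with adenine and -0.40 with AICAR. Without the AICAR pair the coefficient was -2.10 (SE 0.16, limma adjusted p = 0.00535). It was -1.23 without the control pair (limma adjusted p = 0.244) and -1.27 without the adenine pair (limma adjusted p = 0.132).

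Gsta4 (chromosome 9, 78191966 to 78209349) encodes a glutathione transferase that conjugates 4-hydroxynonenal and related lipid peroxidation products. It was at 9.42 in control, 9.36 in adenine and 7.92 in AICAR fibroblasts, and at 7.78, 8.17 and 7.48 in the adipocytes. The states overlapped, since the AICAR fibroblasts were lower than the adenine adipocytes. In the untreated pair Gsta4 was 3.11-fold lower in adipocytes (-1.64), and in the AICAR pair the difference was -0.45. Nqo1 (chromosome 8, 107388225 to 107403205), the quinone reductase that is the usual reporter of NRF2 activity, was at 7.17, 7.46 and 6.09 in fibroblasts and at 6.52, 6.34 and 6.39 in adipocytes. Its difference between states was -0.65 in control, -1.12 in adenine and 0.31 in AICAR, and the coefficient of -0.49 (SE 0.28) did not pass (limma adjusted p = 0.317). The AICAR fibroblasts held its lowest value, near the filter floor of 5.87, so the size of that fold depends on the background correction.

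The untreated pair of arrays had 1 of the 10 genes at least 2-fold higher in adipocytes (Taldo1) and 2 at least 2-fold lower (Hmox1 and Gsta4), where 2.88% of tested genes were at least 2-fold higher and 4.27% lower. The median of the 10 was -0.16, and that of all tested genes was 0.02. With adenine in both states 1 gene was at least 2-fold higher and 3 lower, Nqo1 being the addition, against 6.75% higher and 8.47% lower among all tested genes. With AICAR in both states only Taldo1 reached 2-fold, against 10.5%.

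AICAR and adenine were then compared with the untreated fibroblasts. AICAR is a ribonucleoside that cells phosphorylate to ZMP, an AMP analogue that activates the AMP-activated protein kinase, and adenine is a free purine base that cells convert to AMP. In AICAR fibroblasts Gclc was higher by 1.07 (2.11-fold), while Gsta4 was 2.82-fold lower and Nqo1 was 2.12-fold lower (a difference of -1.09). Hmox1 had a difference of -0.92 (1.89-fold lower). These targets of one factor thus went different ways in the same culture, with 1 past 2-fold upward and 2 past it downward, where 1.7% of tested genes went past it upward and 3.69% downward. The median of the 10 was -0.28 and that of all tested genes -0.03. Among the 9969 genes, Gsta4 ranked 103rd from the lowest difference, Nqo1 284th from the lowest and Gclc 132nd from the highest. The summed signal of the leukocyte markers, of which 5 of 6 were on the array, was highest in this culture, at 8.09 against at most 7.25 in the other 5, and this came mainly from Cd68, at 7.44 against 5.95 in control, since the other 4 were below the filter and Ptprc, which defines leukocytes, was at 4.21 against 4.24. The fibroblast marker sum was 13.63 against 14.21 in control, with Dlk1 at 9.05 against 11.50 and S100a4 at 7.80 against 10.08. The adipocyte marker sum was 12.26 against 11.89, with Fabp4 at 8.62 against 6.97 and Pparg at 9.04 against 8.09, while Adipoq was at 4.05 against 4.42. The part of these markers in the values of the 10 genes was not tested.

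Gclc (chromosome 9, 77754535 to 77794489) and Gclm (chromosome 3, 122245487 to 122267215) encode the catalytic and the modifier subunit of glutamate-cysteine ligase, the enzyme that limits glutathione synthesis. Gclc was at 7.05 in control, 7.01 in adenine and 8.12 in AICAR fibroblasts, and at 7.28, 7.74 and 7.58 in adipocytes. The AICAR fibroblasts alone stood above all 3 adipocyte cultures. Gclm was at 8.39, 8.07 and 8.08 in fibroblasts and at 8.07, 8.35 and 8.26 in adipocytes, with both compounds below control in fibroblasts and both above it in adipocytes. In the AICAR fibroblasts the subunits therefore had differences of opposite sign, 1.07 for Gclc and -0.31 for Gclm. Both differences were positive in the adipocytes with either compound, at 0.47 and 0.28 with adenine and 0.30 and 0.19 with AICAR.

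The thioredoxin arm showed small differences. Txnrd1 (chromosome 10, 82833951 to 82897724), the cytosolic thioredoxin reductase, was at 7.97 in control, 7.96 in adenine and 7.73 in AICAR fibroblasts, and at 7.78, 7.80 and 7.96 in adipocytes. Srxn1 (chromosome 2, 152105524 to 152111376), the sulfiredoxin that repairs overoxidised peroxiredoxins, was at 7.67, 7.60 and 7.81 in fibroblasts and at 7.54, 7.25 and 7.45 in adipocytes. Srxn1 was lower in every adipocyte culture than in every fibroblast culture, by a coefficient of -0.28 (SE 0.14) that did not pass (limma adjusted p = 0.257). Of the promoter stretches shown above, that of Txnrd1 holds the longer ARE form and that of Srxn1 an AP-1 match followed directly by GC. The windows of Keap1, Nqo1 and Taldo1 held no match to any of the motifs searched.

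**Figure D3:**
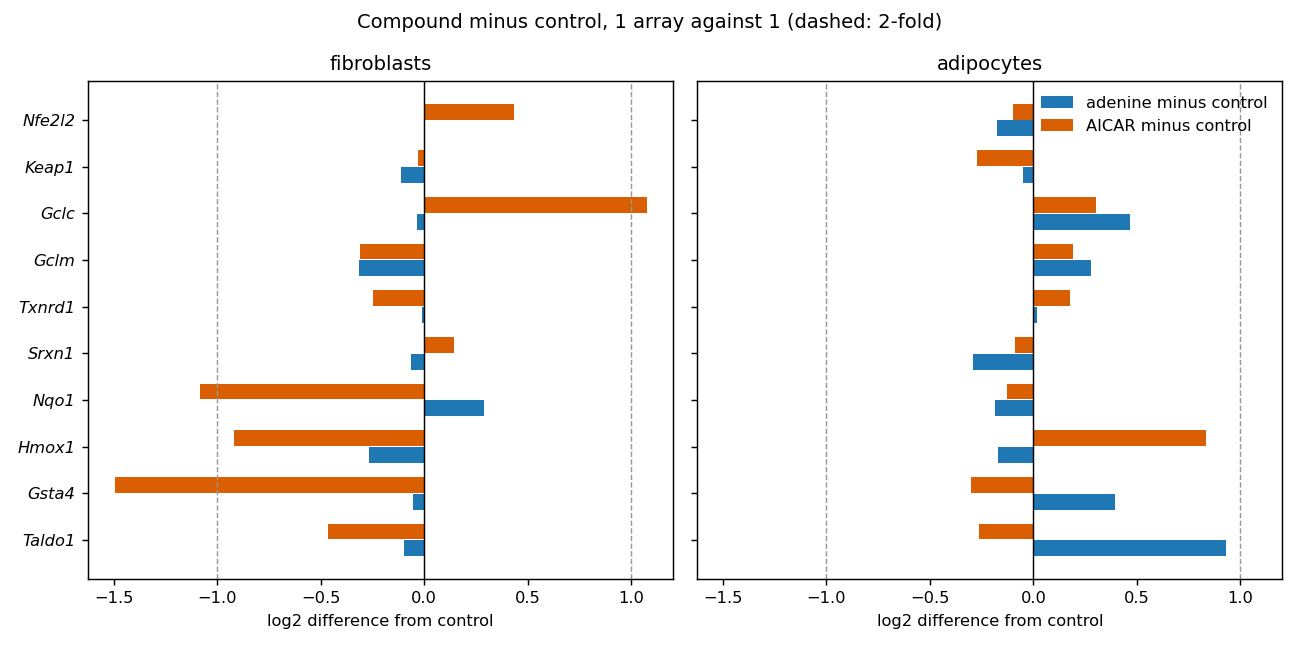
Log2 difference from the control array of the same state for the 10 genes, in fibroblasts (left) and adipocytes (right), with adenine in blue and AICAR in orange and dashed lines at 2-fold; each bar is 1 array minus 1 array and has no error. In fibroblasts the AICAR bars of Gclc (1.07), Nqo1 (-1.09) and Gsta4 (2.82-fold lower) pass 2-fold, and no bar does in adipocytes.

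Adenine left the 10 genes close to control in fibroblasts. Its differences ran from -0.32 (Gclm) to 0.29 (Nqo1), with a median of -0.06, and none reached 1.5-fold or 2-fold. Among all tested genes 0.863% reached 1.5-fold and 0.13% 2-fold. In adipocytes that had received adenine during induction, Taldo1 was higher than in untreated adipocytes by 0.93 (1.90-fold), Gclc by 0.47 and Gsta4 by 0.39, and Srxn1 had the lowest value at -0.29. None of the 10 reached 2-fold there, where 3.64% of tested genes did, and 1 reached 1.5-fold, where 13.7% did. Taldo1 was at least 2-fold higher once arrays were centred on their medians.

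In adipocytes that had received AICAR, Hmox1 was higher than in the untreated adipocytes by 0.83 (1.78-fold), the 84th highest of the 9969 differences. The other differences lay between -0.30 (Gsta4) and 0.30 (Gclc). None of the 10 reached 2-fold, where 0.993% of tested genes did, and 1 reached 1.5-fold, where 3.66% did. Averaged over both states in the additive model, 0 of 9969 genes (0.0%) passed at a limma adjusted p of 0.05 for adenine and 0 (0.0%) for AICAR. That average joins fibroblasts harvested at the end of exposure with adipocytes harvested 3 days after it. At an unadjusted limma p under 0.05 there were 62 genes (0.622%) for adenine, none of them among the 10, and 226 (2.27%) for AICAR, of which Gsta4 was 1 (coefficient -0.90, SE 0.30, unadjusted p = 0.0269, limma adjusted p = 0.991).

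The compounds were also set against each other, at the same 0.5 mM and the same 3 days, in 10 genes and 2 states. In fibroblasts AICAR minus adenine was 1.11 for Gclc, -1.37 for Nqo1 and -1.44 for Gsta4, and 3 of the 10 reached 2-fold, against 5.49% of tested genes. In adipocytes Hmox1 was higher with AICAR by 1.01 (2.01-fold) and Taldo1 had a difference of -1.19 (2.28-fold lower), so 2 of the 10 reached 2-fold, against 3.42%. Gsta4 was lower with AICAR in both states, by -1.44 in fibroblasts and -0.70 in adipocytes. Over both states its coefficient was -1.07 (95% interval -1.82 to -0.32), with a limma adjusted p of 0.863 over all genes tested. No gene (0.0%) passed that contrast, with 424 genes (4.25%) at an unadjusted p under 0.05 in limma, Gsta4 (0.0137) and Taldo1 (0.0351) among them. For Hmox1 the interval of the difference ran from -0.93 to 1.29 and for Nqo1 from -1.52 to 0.21, so both a difference above 1.5-fold and none lie inside.

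The other genes of the pathway were taken from a list of 85, of which 77 were on the array and 65 passed the filter. In the additive model 9 of the 65 rose in adipocytes and 8 fell, together 26.2%, against 10.6% of all tested genes. The list was chosen with earlier results of these data known, so the contrast of these shares is not a test. Catalase (Cat), which breaks down hydrogen peroxide, rose by 1.56 (SE 0.16, limma adjusted p = 0.00944), the mitochondrial superoxide dismutase Sod2 by 1.05, the microsomal glutathione transferase Mgst3 by 1.84 and the carbonyl reductase Cbr3 by 1.56. The iron exporter ferroportin (Slc40a1) fell by 2.42 (SE 0.14, limma adjusted p = 0.00263), Gstm1 by 1.25, Gstm3 by 1.11 and Gstm5 by 1.05. Slc40a1 was at 5.59 to 6.07 in adipocytes, near the filter floor of 5.87, so the size of its fall depends on the background correction. The Gstm genes are close paralogs, and their probe sets may share signal. Without the control pair no gene on the array passed in limma, with 24 of the 65 at an unadjusted p under 0.05 against 21% of all genes. Without the adenine pair 5 rose and 4 fell, where 511 of 9969 genes (5.13%) passed.

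By role, the 4 genes of NADPH supply were higher in adipocytes in the untreated pair, with a median of 0.64, and in both compound pairs (1.03 with adenine, 0.34 with AICAR), as was Taldo1. Without compound, glutathione peroxidases were lower in adipocytes in 4 of 4 cases (median -0.85), and glutathione transferases in 7 of 9 (median -0.90), as was Gsta4. In the adenine pair the medians were -0.87 and -0.53, and in the AICAR pair they were 0.12, with 2 of 4 peroxidases lower, and -0.03, with 5 of 9 transferases lower. Of all 9969 genes, 4796 were lower in adipocytes in the untreated pair, 4666 in the adenine pair and 4967 in the AICAR pair. Those higher were 5172, 5300 and 5002. Of the 65, 6 lay 2-fold or more above and 10 lay 2-fold or more below the fibroblast value in untreated adipocytes, against 2.88% and 4.27% of all tested genes. The lowest differences were those of Slc40a1 (-2.47), the extracellular superoxide dismutase Sod3 (-1.48) and Gstm2 (-1.46), and the highest those of the aldehyde dehydrogenase Aldh3a1 (2.09), Cat (1.74) and Mgst3 (1.55). Aldh3a1 had a mean of 5.99, just above the filter floor of 5.87. It stood at 5.57 in control fibroblasts, so its difference rests on the control adipocyte array, at 7.66.

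In AICAR fibroblasts 49 of the 65 were below control and 16 above, with a median of -0.27, and 5 passed 2-fold downward and none upward. Of all 9969 genes 5232 were below control (median -0.03), with 3.69% past 2-fold downward and 1.7% upward. Those 5 were Sod3 (-2.90), the glutathione-degrading enzyme Chac1 (-2.10), the sestrin Sesn2 (-1.87), and Gpx1 (-1.72) and Gstk1 (-1.06), of which the last 2 were named after their values were seen. In this culture Sod3 (6.18), Chac1 (6.16) and Gstk1 (5.92) stood near the filter floor of 5.87. The size of their folds therefore depends on the background correction, as for Nqo1. All 7 genes of heme and iron handling were below control (median -0.47), as was Hmox1. The highest were Bach1 (0.87), which encodes a repressor of Hmox1 and other ARE genes, glutathione reductase Gsr (0.71) and Mafg (0.51), a small MAF partner of NRF2. Bach1 stood at 7.76 in control, 7.83 in adenine and 8.63 in AICAR fibroblasts, and at 7.23, 6.82 and 7.35 in adipocytes. Its part in the Hmox1 values was not tested.

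**Figure D4:**
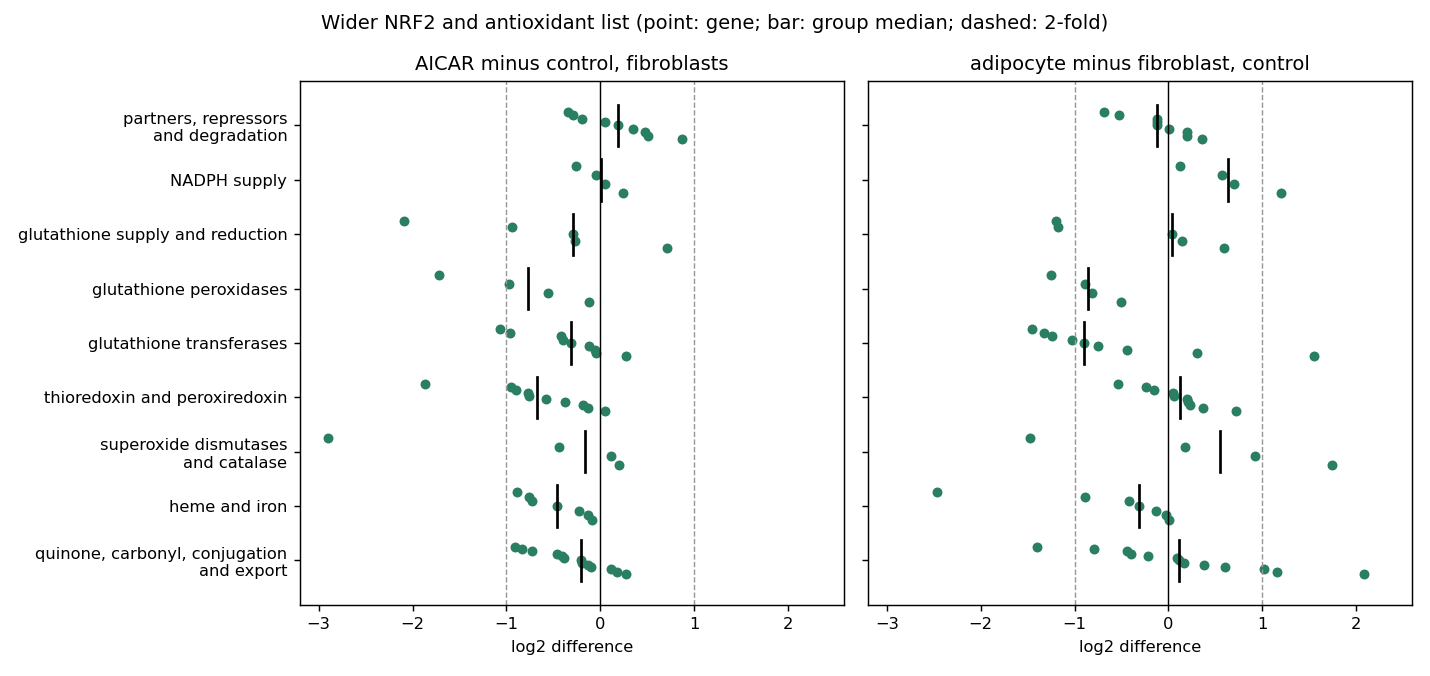
Log2 difference of the 65 tested genes of the wider list by role, for AICAR minus control in fibroblasts (left) and adipocyte minus fibroblast without compound (right); each point is a gene, bars are group medians and dashed lines mark 2-fold. With AICAR the glutathione peroxidases (median -0.77) and the thioredoxin and peroxiredoxin genes (-0.67) sit to the left, and in untreated adipocytes NADPH supply (0.64) sits to the right.

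Adenine in fibroblasts left 46 of the 65 below control, by small amounts (median -0.10), where 5193 of 9969 genes were below (median -0.01), with the cystine transporter Slc7a11 the lowest at -0.66. In adenine adipocytes 41 of the 65 were above control, where 5233 of all 9969 were. Mgst3 was the highest at 1.16, followed by Chac1 (0.77) and malic enzyme Me1 (0.74), another source of NADPH, and Aldh3a1 was the lowest at -1.78. In AICAR adipocytes Aldh3a1 was again the lowest, at -1.52. Both compounds were compared with the same control adipocytes, in which Aldh3a1 stood at 7.66 against 5.88 and 6.14, so these values share that array. With either compound it was near the filter floor of 5.87.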

How the data were processed

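Biotin-labelled total RNA was hybridised to Affymetrix arrays (labels' protocols). Values deposited by the authors are log2 expression of 35556 probe sets in 6 samples. The submitters' processing notes name Transcriptome Analysis Console 1.0.0.234 and mm10. How background, normalization and probe summary were handled is not stated in the sources, the log base was inferred from the range of the values, and the values were used as deposited. Probe sets with 1 symbol in the platform annotation (21789) gave 19938 genes, the probe set with the highest mean standing for a gene, and 9969 genes at or above the median of gene means were tested.

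Arrays were subtracted in 9 comparisons, with no test. limma 3.58.1 in R 4.3.3 fitted state and medium over all 6 arrays, with Benjamini-Hochberg adjustment over all tested genes at 0.05, 2 residual and 3.64 prior degrees of freedom. Nothing says whether cultures were handled in batches. Both steps were tested on simulated data.

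The members and lists were chosen with earlier results of these data known. The text names the 10 members, the 3 highest and 3 lowest genes of the wider list per comparison, the 8 list genes with the smallest p for state, and the 3 genes most like the member of widest range. Some of these are not printed. Alternatives were quantile normalization, median centring, means over probe sets, other filters, a 1.5-fold size, a mean-variance trend, no block, and leaving out each medium.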

Additional observations from a re-analysis of the deposited data

Results flagged for a closer look

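Hmox1 was set apart because its response to AICAR had opposite signs in the 2 states, each at least 1.5-fold in size. AICAR minus control was -0.92 in fibroblasts and 0.83 in adipocytes, so the effects differed by 1.75 on the log2 scale. Each value is 1 array against 1, and the difference between the states was not tested. Such an opposition was seen for 61 of 9969 genes (0.612%), and a difference between states as large as that of Hmox1, in either direction, for 123 genes (1.23%). The exposures were not alike, since the fibroblasts were harvested at the end of the 3 days of AICAR and the adipocytes 3 days after it was withdrawn. The part of that timing in the result cannot be told apart from that of the cell state.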

How the results depend on the processing

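Each condition has 1 array, and a value near the filter floor, such as that of Nqo1 in AICAR fibroblasts, also depends on the background correction. All 270 values of single-gene differences between arrays moved by less than the gene's moderated residual SD under quantile normalization, median centring and means over probe sets, by at most 0.15. Means over probe sets could not move them, since each member has 1 probe set, and median centring shifts all genes of a comparison alike, by at most 0.078. Of 328 model coefficients, 307 kept their direction and their side of the threshold. For the compound terms no gene passed in any fit, so only the direction of those coefficients changed in some fits.

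The number of members that passed for state was 2 (10.6% of all genes passed). It was 1 with median centring (9.36%), without the filter (5.76%) and with a mean-variance trend (10.8%), and 3 with quantile normalization (10.8%) and with the 75th percentile filter (12.1%). It was 0 to 3 when a medium was left out, with 0 without the control pair (where no gene passed), 1 with the adenine pair left out (5.13%) and 3 with the AICAR pair left out (9.24%). Gsta4 was the call lost with median centring, no filter, the trend and the adenine pair left out, and in the model without the block (adjusted p = 0.114 in limma), and Hmox1 passed in 4 of 11 fits. Small coefficients changed sign. With a medium left out, the state coefficient ran from -0.15 to 0.11 for Nfe2l2, -0.16 to 0.48 for Gclc, -0.067 to 0.23 for Gclm and -0.18 to 0.031 for Txnrd1. Median centring gave Gclm 0.0125 for adenine, and quantile normalization gave Txnrd1 -0.0109 for adenine, Hmox1 0.0107 for AICAR and Gclm 0.0076 for AICAR against adenine.

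Counts of members at least 2-fold apart depended on the size and the filter. The 75th percentile filter, which tested 7 members, left 1 of 3 for AICAR in fibroblasts against control and 1 of 3 against adenine, since Gclc and Nqo1 were not tested under it. Median centring gave 1 in place of 0 for adenine in adipocytes, and 1 in place of 2 for AICAR against adenine there. At 1.5-fold there was 1 member for adenine and 1 for AICAR in adipocytes. In the wider list, 1.5-fold gave 1, 20 and 19 genes in fibroblasts (adenine, AICAR, AICAR against adenine), 8, 3 and 12 in adipocytes, and 28, 31 and 29 between states (control, adenine, AICAR), in place of 0, 5, 5, 2, 1, 1, 16, 19 and 12. Of all tested genes 0.863%, 19.0%, 18.9%, 13.7%, 3.66%, 11.3%, 18.0%, 30.9% and 27.7% reached 1.5-fold in these comparisons. The 75th percentile filter gave 3 for AICAR in fibroblasts, 1 for adenine and 0 for AICAR in adipocytes, and 9 and 7 between states (control, AICAR). For AICAR against adenine in adipocytes median centring gave 2 and no filter gave 3. No paired analysis by replicate number was possible because each condition has 1 array.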
